A study of Mus musculus with 8 samples.

Results

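miR-218 is a miRNA made from 2 hairpins that lie in introns of Slit2 and Slit3, and its measured arms were compared here between the hippocampus of BTBR and B6 mice. The arms were taken by name. Of the 3 names that the rule lists, mmu-miR-218-5p and mmu-miR-218-1-3p are 2 of the 422 miRNAs with deposited read counts, and mmu-miR-218-2-3p was not analysed here. The species prefix is left out from here on. Each of 8 small RNA libraries came from 1 adult male mouse of 12 weeks, with 4 mice of BTBR T+ Itpr3tf/J, an inbred line used to model autism of unknown cause, and 4 of C57BL/6J (B6), the control strain. The mice carried no transgene or treatment, so that the groups differ in their whole inbred background and no single allele can be singled out. Summed over all miRNAs, B6 libraries held 5078301 to 5792967 counts, and BTBR libraries 2247482 to 7904990. Every miRNA of the table has at least 1 read in each library.

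A miRNA hairpin is cut into a short duplex, of which the arm that is kept in Argonaute is called the guide and the other, usually soon lost, the passenger. Slit2 and Slit3 encode secreted guidance proteins that repel growing axons through Robo receptors, and miR-218 is known for its high level in motor neurons and for targeting Robo mRNAs. The 5p arm is the guide. It has the same sequence in both hairpins, so that its reads cannot be assigned to a host gene, whereas each 3p arm is named for 1 hairpin. In the GRCm38 build, the Slit2 hairpin spans 48223942 to 48224051 of chromosome 5, plus strand, within an intron of each of the 7 annotated Slit2 transcripts that span it (intron 16 in the protein-coding transcript Slit2-202). The Slit3 hairpin spans 35616816 to 35616925 of chromosome 11, plus strand, in intron 14 of the transcript Slit3-201. Their RefSeq sequences on GRCm38.p6 are shown because they tell which arm can name its locus, with the mature arms in capitals.
Mir218-1 (Slit2): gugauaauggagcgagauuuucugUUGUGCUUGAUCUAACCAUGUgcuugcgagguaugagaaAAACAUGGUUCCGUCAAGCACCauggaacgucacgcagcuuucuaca
Mir218-2 (Slit3): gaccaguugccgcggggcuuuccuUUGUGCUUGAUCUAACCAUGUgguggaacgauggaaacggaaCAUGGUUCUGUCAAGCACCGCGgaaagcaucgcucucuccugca

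Over their whole length the hairpins shared 81 bases in an alignment of 115 columns (70.4%). The mature arms follow, with the seed, bases 2 to 8 from the 5′ end, in capitals, because the seed sets which mRNA sites a miRNA can pair with.
miR-218-5p: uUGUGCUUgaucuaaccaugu
miR-218-1-3p: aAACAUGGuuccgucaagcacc
miR-218-2-3p: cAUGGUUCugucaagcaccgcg

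The 3p arms overlapped over 19 bases, of which 18 were equal, but they start at different bases and therefore carry different seeds. The 5p arm occupies positions 25 to 45 of either hairpin. Of the measured miRNAs, 367 had a mature sequence in the RefSeq table. Among these, 0 others shared the seed of miR-218-5p and 0 that of miR-218-1-3p, and the nearest mature sequence to either arm was 9 edits away. Among these 367, no close relative was found whose reads could be taken for either arm.

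miR-218-5p was an abundant miRNA of the hippocampus in both strains, and its level did not separate them. In the B6 mice it had 2012, 1555, 2599 and 3073 CPM (reads scaled to a common library total, after TMM normalization) in replicates 1 to 4, with a mean of 2309.7 ± 664 (SD, n = 4). In the BTBR mice it had 2131, 1864, 2258 and 1995 CPM, with a mean of 2062 ± 170.1 (SD, n = 4). All BTBR mice lay inside the range of the B6 mice, and the highest and the lowest of the 8 libraries were both B6. The guide arm stood between the 37th and the 53rd place by count in every library, and took 0.181% to 0.268% of all counts. These are 4153 to 16581 reads per library, so that counting error is small beside the spread between mice.

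The strain difference of miR-218-5p was a log2 fold change, BTBR over B6, of −0.16 with a standard error of 0.22 and a 95% interval from −0.64 to 0.32. The adjusted p was 0.813 over the 422 miRNAs (edgeR quasi-likelihood test, Benjamini-Hochberg), and a two-sided exact permutation test on log2(CPM + 0.5) over the 70 assignments of the mice gave p = 0.6 (n = 4 per strain). Scaled by library size only, the log2 fold change was 0.03, where the median of all miRNAs moved from 0.02 to 0.15. Relative to that median, miR-218-5p was at −0.18 with TMM or DESeq2 size factors, −0.21 with the upper quartile and −0.12 with library size only. A scaling shifts all miRNAs nearly alike, so that these values are close by construction and are not separate support.

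The passenger arm of the Slit2 hairpin, miR-218-1-3p, was among the rarest miRNAs counted. It had 5, 5, 5 and 3 reads in B6 replicates 1 to 4, and 10, 17, 18 and 8 reads in BTBR replicates 1 to 4. Over the strains these are 18 and 53 reads. In reads every BTBR library lay above every B6 library, as in 3 of the 422 miRNAs (0.711%). As CPM the strains overlapped. The B6 mice had 0.960, 0.836, 1.01 and 0.674 CPM, a mean of 0.870 ± 0.149 (SD, n = 4). The BTBR mice had 2.06, 7.63, 4.51 and 0.962 CPM, a mean of 3.79 ± 2.96 (SD, n = 4). BTBR replicate 4, the most deeply sequenced library, lay within the B6 range, and the other BTBR mice lay above it.

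**Figure D1:**
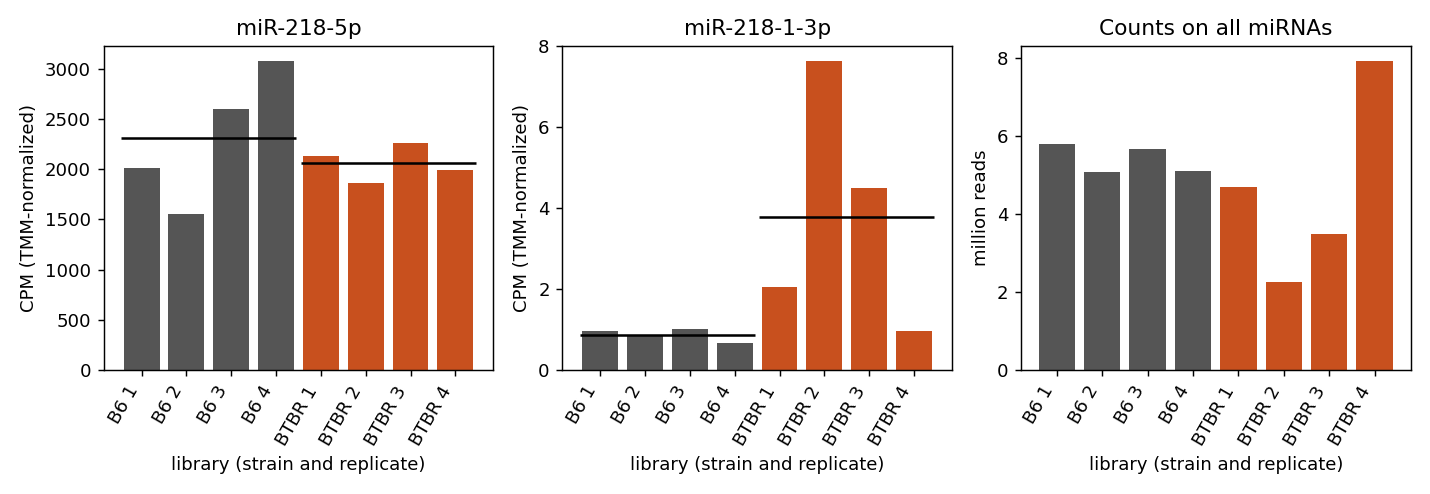
Levels of the guide arm miR-218-5p (left) and the Slit2 passenger arm miR-218-1-3p (middle), in CPM after TMM normalization, and the total reads on all miRNAs, in the unit its axis gives (right), with 1 bar per library and lines at the strain means (n = 4). BTBR lies within the B6 range for the guide, while the passenger reaches 7.63 CPM in BTBR replicate 2, the library with the fewest counts.

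The log2 fold change of miR-218-1-3p was 1.99 with a standard error of 0.69 and a 95% interval from 0.47 to 3.50. Its p stood in place 24 of the 422 miRNAs, and the adjusted p of 0.254 did not pass the study's threshold of 0.1 (edgeR quasi-likelihood test, Benjamini-Hochberg). In the same test 7 of the 422 miRNAs passed (1.66%), and neither arm of miR-218 was among them. On log2(CPM + 0.5) the strain means differed by 1.37, and the strains overlapped in both miR-218 arms. Over all miRNAs, the strains did not overlap in 28 of 422 (6.64%). The exact permutation test gave p = 0.0571 for the passenger arm (two-sided, n = 4 per strain), where 0.0286 is the smallest value the design allows.

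Whether miR-218-1-3p was called depended on the test. With edgeR's exact test in place of the quasi-likelihood test, it passed, with an adjusted p of 0.0821 and a log2 fold change of 2.003. DESeq2 gave an unadjusted p of 0.00621 and no adjusted p, since this arm was below its abundance filter, and limma-voom gave a log2 fold change of 1.35 with an adjusted p of 0.567. Leaving out BTBR replicate 2 brought the log2 fold change to 1.42 (edgeR quasi-likelihood adjusted p = 0.398), and leaving out BTBR replicate 4 to 2.29 (adjusted p = 0.177 in the same test). Of the 47 miRNAs with a mean count under 20, 0 passed the adjusted threshold in the quasi-likelihood test, and 6 had an unadjusted p under 0.05, against 46 of all 422. Their median standard error was 0.63, against 0.32 over all miRNAs.

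**Figure D2:**
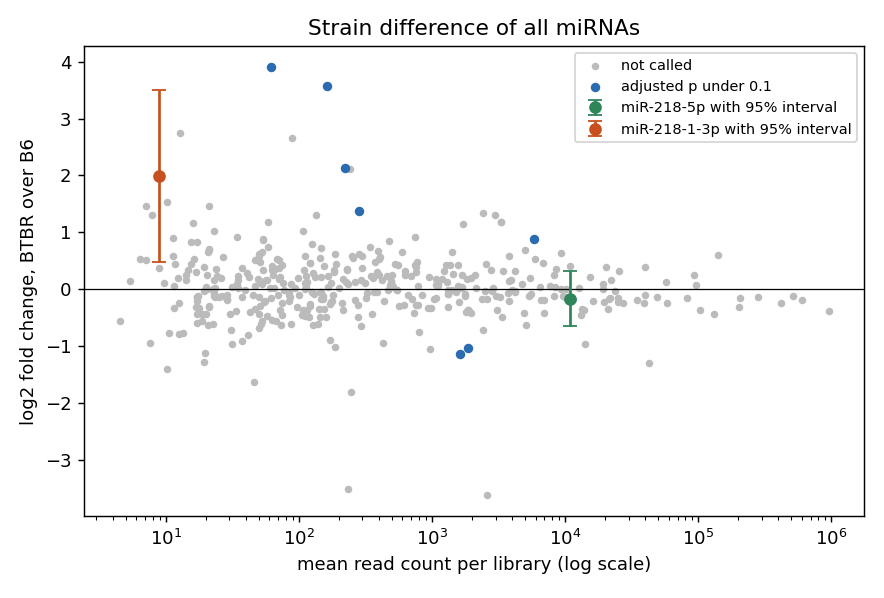
Log2 fold change, BTBR over B6, of each of the 422 miRNAs (points) against its mean read count per library on a log axis, with the 7 miRNAs past the adjusted threshold in blue and the 95% intervals of both miR-218 arms. miR-218-5p sits near 0 at a high count, and miR-218-1-3p, at a mean of 8.88 reads, has a wide interval from 0.47 to 3.50.

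Among the BTBR libraries the passenger arm was higher where fewer reads had been counted. The BTBR libraries ordered from fewest to most counts on all miRNAs were replicates 2, 3, 1 and 4, and their miR-218-1-3p levels of 7.63, 4.51, 2.06 and 0.962 CPM fell in that same order. In B6 mice replicates 1 and 3, with the most counts, had 0.960 and 1.01 CPM. Replicates 4 and 2, with fewer, had 0.674 and 0.836 CPM. With 3 to 5 reads of the arm and 5078301 to 5792967 counts per library, the B6 libraries are too alike to show such an order. BTBR replicate 4, the deepest of the 8, was not the lowest. The 3 libraries with the fewest counts of all 8 were all BTBR, and they had the 3 highest levels of the arm. The 3 shallowest libraries were the 3 highest in 7 of the 422 miRNAs (1.66%) and the 3 lowest in 9, and miR-218-1-3p was the only one of these 7 among the 47 miRNAs with a mean count under 20. The reads themselves were more numerous in the shallower BTBR libraries, 17 and 18 in replicates 2 and 3 against 8 in replicate 4. With log2 total count as a covariate, a fit added after the data had been seen, the log2 fold change was 1.06 (standard error 0.53, edgeR quasi-likelihood adjusted p = 0.682). This fit takes the same depth slope for both strains, and the 3 shallowest libraries were all BTBR. It therefore cannot tell depth and strain apart, and the part of depth in the strain difference was not tested.

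Both arms are counted in the same library, so that their ratio does not depend on scaling between libraries. miR-218-1-3p made up 4.77, 5.38, 3.88 and 2.19 of every 10000 reads of both arms in B6 replicates 1 to 4, and 9.64, 40.8, 19.9 and 4.82 in BTBR replicates 1 to 4. The exact Clopper-Pearson 95% interval was 23.8 to 65.2 in BTBR replicate 2, above the intervals of all B6 libraries, which reached 12.5. In BTBR replicate 3 it was 11.8 to 31.5 and in BTBR replicate 4 it was 2.08 to 9.50, so that both overlapped the interval of at least 1 B6 library. The intervals treat reads as independent and leave out the spread between mice. Reads without molecular identifiers are not independent molecules, so that the intervals may be too narrow even for counting error. Since the guide reads come from both hairpins, the ratio is not the strand ratio of the Slit2 hairpin alone.

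**Figure D3:**
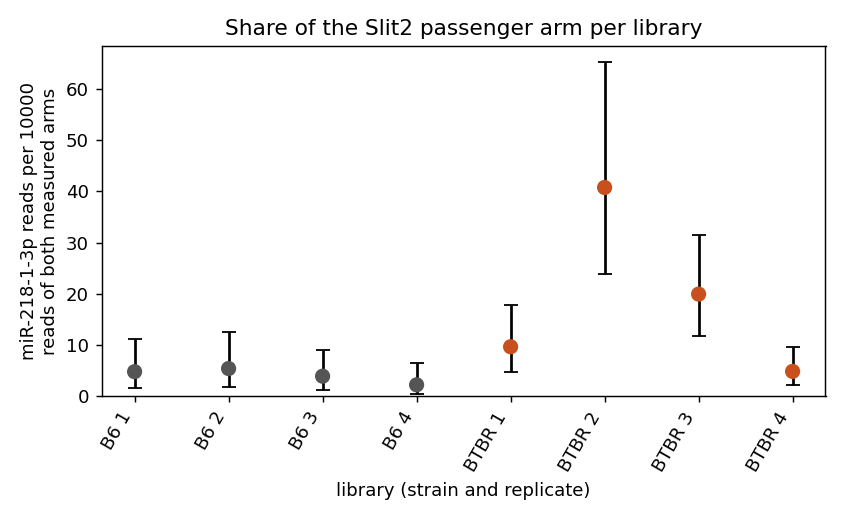
Reads of miR-218-1-3p per 10000 reads of both measured miR-218 arms in each library, with exact Clopper-Pearson 95% intervals that treat reads as independent and leave out the spread between mice. B6 libraries lie between 2.19 and 5.38, BTBR replicate 4 at 4.82 lies among them, and BTBR replicates 1, 2 and 3 lie above, at 9.64, 40.8 and 19.9.

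As a guide to passenger ratio, miR-218-5p had 1859 to 4558 reads per read of miR-218-1-3p in B6 and 244 to 2073 in BTBR mice. BTBR replicate 4 had a higher ratio than B6 replicate 2, and the other BTBR mice lay below all B6 mice. Among the BTBR mice the ratio rose with the total count of the library, from 244 in replicate 2 through 501 in replicate 3 and 1037 in replicate 1 to 2073 in replicate 4, and no depth covariate was fitted to it. The mean log2 ratio, with 0.5 added to each count, was 11.19 ± 0.53 (SD, n = 4) in B6 and 9.42 ± 1.31 in BTBR mice. The difference of −1.76 was not significant in the two-sided exact permutation test (p = 0.0857, n = 4 per strain). It had the same direction when any 1 mouse was left out, between −2.26 without BTBR replicate 4 and −1.25 without BTBR replicate 2.

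The same ratio was formed for all 127 pairs of arms that could be matched by name, always with the more abundant arm on top, and fitted with limma. The miR-218 pair was one of the most unequal, in place 14 of 127 by its median ratio of 1795. Its difference between strains of −1.76 had a 95% interval from −3.40 to −0.13 and an unadjusted p in place 6 of 127, with an adjusted p of 0.774. At the adjusted threshold of 0.1, 0 of the 127 ratios passed (0%), and 6 had an unadjusted p under 0.05 in limma. The strains did not overlap in 3 of the 127 ratios (2.36%), which were those of miR-140, miR-411 and miR-181a-5p over miR-181a-1-3p, named after their values were seen. The miR-218 ratio was not one of these. The median difference over all pairs was −0.05.

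**Figure D4:**
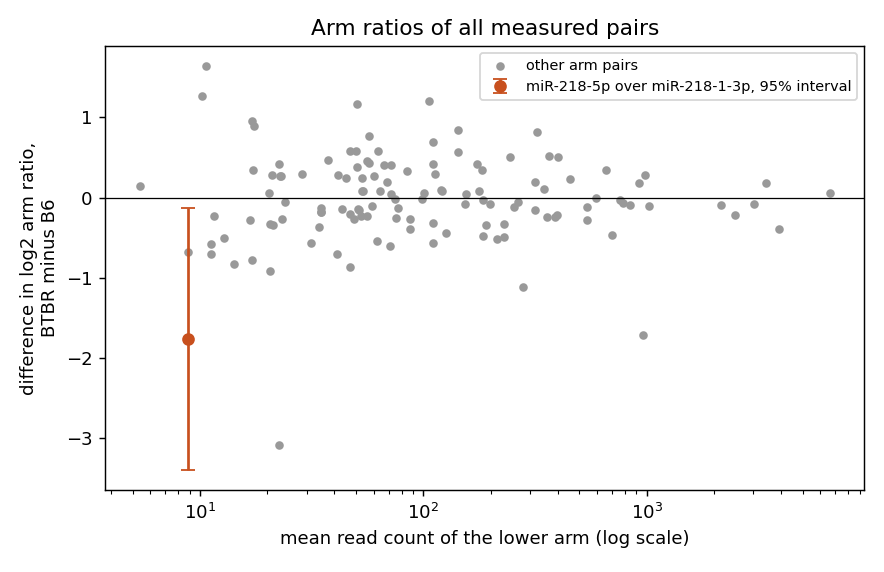
Difference between strains in log2 arm ratio, more abundant arm over less abundant arm, BTBR minus B6, for 127 arm pairs against the mean read count of the lower arm on a log axis. The miR-218 pair lies at −1.76 with a 95% interval from −3.40 to −0.13, at the low-count end where other pairs also spread widely.

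miR-218-1-3p belongs to a class of passenger arms that carry the number of 1 hairpin while the guide on the other arm is shared by several. The libraries held 27 such arms by name, of which let-7a-1-3p and let-7c-2-3p had the same count in every library and so cannot be told apart. miR-218-1-3p had the lowest mean count of them and the smallest p. Of the 27, 0 passed the adjusted threshold in the quasi-likelihood test, against 1.66% of all miRNAs, while 2 had an unadjusted p under 0.05, against 46 of all 422 miRNAs, and 12 had a log2 fold change above 0. Their median was −0.01, the value that let-7a-1-3p and let-7c-2-3p share, against 0.02 over all 422 miRNAs. The other arm with an unadjusted p under 0.05 was miR-16-2-3p, also a rare arm, with 6 to 23 reads in B6 and 1 to 11 reads in BTBR mice. It had the opposite sign, at −1.39 on the log2 scale with a standard error of 0.63 (edgeR quasi-likelihood adjusted p = 0.451). The third by p, miR-181a-1-3p, was at −0.68 with a standard error of 0.35 (edgeR quasi-likelihood adjusted p = 0.521). It had 11.515 to 13.5 CPM in B6 mice, while BTBR mice had 4.49 to 11.511 CPM, and it was the only 1 of the 27 whose strains did not overlap, by a narrow gap, against 6.64% of all miRNAs.

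The guides of these 3 arms did not pass the test either. The log2 fold change was −0.10 for miR-16-5p and −0.12 for miR-181a-5p, beside −0.16 for miR-218-5p, with adjusted p between 0.813 and 0.885 in the edgeR fit. For 11 guides the arms of more than 1 hairpin were measured. For miR-218 the Slit3 arm was not analysed here, and the values above describe the Slit2 arm only.

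**Figure D5:**
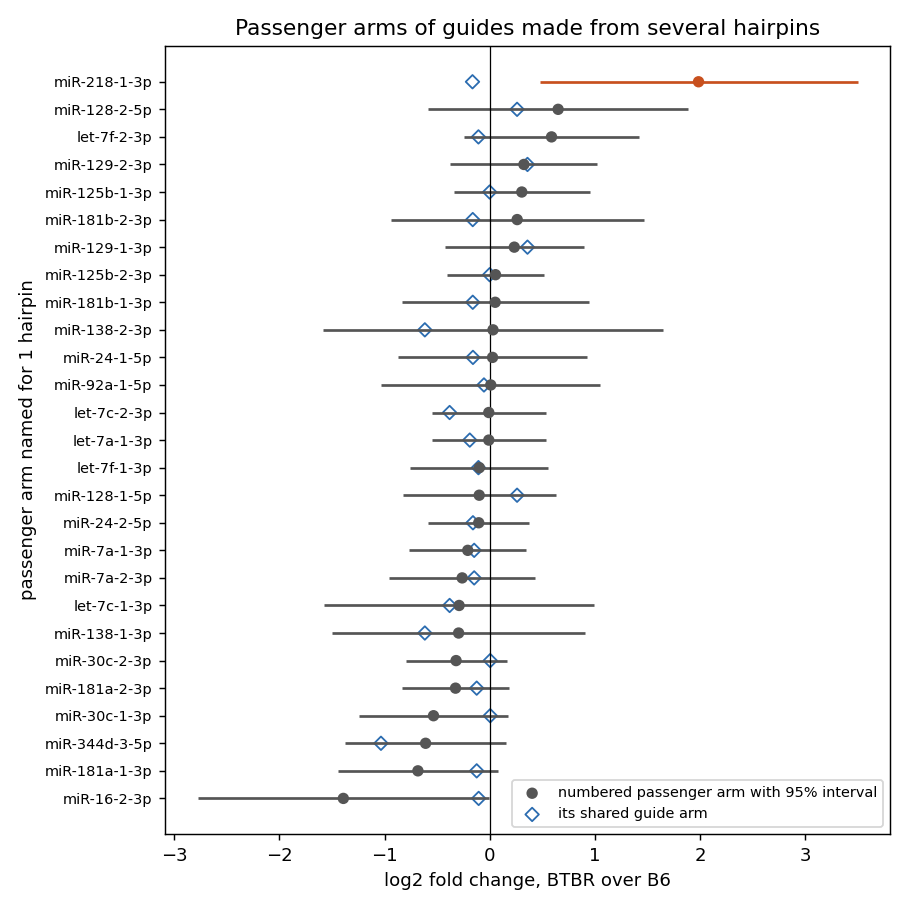
Log2 fold change, BTBR over B6, of the 27 passenger arms named for 1 hairpin (filled circles with 95% intervals) and of the guide arm each shares with other hairpins (open diamonds). miR-218-1-3p, at 1.99, is the highest of the passenger arms while its guide lies at −0.16, and miR-16-2-3p, at −1.39, is the lowest.

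By the root mean square difference of log2(CPM + 0.5), each centred on its own mean over the 8 libraries, the miRNAs most like miR-218-5p were miR-9-5p at 0.141, let-7e-5p at 0.190 and miR-125b-2-3p at 0.198. For scale, miR-218-5p itself varied by 0.280 about its mean on the same measure. miR-9-5p, a miRNA of neural cells, also had its highest level in B6 replicate 4 and its lowest in B6 replicate 2, and its log2 fold change was −0.16. For miR-218-1-3p, which varied by 0.958, the nearest were miR-200b-3p at 0.485, miR-148a-3p at 0.532 and miR-1964-3p at 0.542. Like it, all 3 were highest in BTBR replicate 2, with miR-200b-3p at 11.7, miR-148a-3p at 1080.1 and miR-1964-3p at 11.2 CPM. These distances are descriptions over libraries that differ in depth.

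The tissue label and the makeup of the samples were checked with marker miRNAs. The 5 brain miRNAs, among them miR-124-3p and miR-9-5p, summed to 51640 to 80541 CPM in B6 and 60191 to 72878 CPM in BTBR mice, and 0 of them passed the adjusted threshold in edgeR. Vessel markers (4 of 4 measured, such as miR-126a-3p) summed to 8863 to 13365 and 6831 to 10686 CPM, and 0 of 4 passed. The choroid plexus list (4 of 4) ranged from 4199 to 30086 CPM in B6 and from 2753 to 7777 CPM in BTBR mice, again with 0 passing. Its members miR-204-5p, miR-448-3p and miR-1298-5p had log2 fold changes, BTBR over B6, of −1.30, −3.51 and −3.60. The remaining member, miR-211-5p, was at 0.91. Muscle markers (3 of 3) summed to 594 to 983 and 786 to 1204 CPM with 0 passing. Hox cluster miRNAs of hindbrain and spinal cord (2 of 4) summed to 8.09 to 39.5 and 12.7 to 37.2 CPM with 0 passing. Red blood cell miRNAs (3 of 3, with miR-451a passing) were the only list with a member past the threshold. They summed to 44.2 to 74.4 CPM in B6 and 119.8 to 158.9 CPM in BTBR mice, with no overlap, and their sum was highest in BTBR replicate 2, where miR-218-1-3p was highest too. BTBR replicate 4 had the next highest sum, 141.4 CPM, and the lowest miR-218-1-3p of the BTBR mice. The part of red blood cells in the level of miR-218-1-3p was not tested, and in whole tissue a change in the number of cells and a change in RNA per cell cannot be told apart.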

How the data were processed

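Hippocampal small RNA of single mice was sequenced with Illumina TruSeq small RNA libraries. The authors removed adapters, aligned reads with Bowtie inside sRNAbench to GRCm38, assigned reads lying fully inside miRBase v21 coordinates, and deposited whole-number read counts per mature miRNA, not normalized. FastQC 0.11.2 is named in the submitters' processing notes. How reads matching both hairpins were divided is not given in the sources used here. Library columns were mapped to samples by library name. All 422 miRNAs were fitted with edgeR 4.0.16 (TMM, quasi-likelihood test, no covariate, Benjamini-Hochberg, threshold 0.1), and arm ratios with limma 3.58.1 (empirical Bayes with a trend on the lower arm's count) in R 4.3.3. Exact permutation tests and intervals used SciPy 1.17.1, the hairpin alignment Biopython 1.88 and plots matplotlib 3.10.9. Standard errors came from the fold change and its F statistic. DESeq2 1.42.0, limma-voom, edgeR's exact test, other scalings, filters, a replicate block and single mice left out were alternatives. As a check for libraries deposited more than once, libraries of a strain were compared by chi-square, which covers counting error only, and no pair was alike (at least 81.7 per degree of freedom). The fits were tested on simulated counts with the same spread between mice for all miRNAs. That spread was smaller than the one fitted to miR-218-1-3p, so that the check does not cover this arm. The members, lists and tests were chosen with earlier results of these data known. Named miRNAs are the members, the 3 numbered arms with the smallest p, arm pairs past the threshold, the 3 miRNAs nearest each member, and markers. The arm pairs without overlap and both let-7 arms with equal counts were named after their values were seen. Coordinates and introns come from RefSeq and GENCODE M21 on GRCm38.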

Additional observations from a re-analysis of the deposited data

Results flagged for a closer look

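In the reads of miR-218-1-3p in B6 mice, replicate 4 had 3 reads and the other replicates 5 reads each, so that the gap of replicate 4 to the others equals the whole range of the group (a gap over range of 1, above Dixon's critical value for 4 samples). With the other counts tied, this ratio is 1 for any gap, and the rate of about 1 in 20 groups at which chance passes the critical value holds for continuous values, not for such counts. The 5 reads of the other replicates lie within the exact Poisson 95% interval of 0.619 to 8.77 for a count of 3.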

How the results depend on the processing

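With library size only, a scaling that moved the median of all miRNAs from 0.02 to 0.15, the log2 fold change of miR-218-5p was 0.026, and relative to that median it was −0.12. It passed under none of the settings run. Of the settings that gave it an adjusted p, miR-218-1-3p passed only with edgeR's exact test (2.003). It has no adjusted p in DESeq2 and was removed by both count filters, so that it has no value there. The count of miRNAs past the threshold was 4 with library size only, 16 with edgeR's exact test, 21 with DESeq2's Wald test and 4 at a threshold of 0.05, against 7. With the replicate block it was 3. The labels do not state that replicate numbers pair the mice. The deviations of same-numbered mice correlated between −0.151 and 0.0516, and those of mice with different numbers between −0.280 and 0.212. These values cannot show whether a pairing exists. Under the block the log2 fold change was −0.12 for miR-218-5p (adjusted p = 0.899) and 1.82 for miR-218-1-3p (adjusted p = 0.415, edgeR quasi-likelihood), and the paired ratio test gave an exact p = 0.125, the smallest that 4 pairs allow. The cause of these changes was not tested. Leaving out 1 mouse at a time gave log2 fold changes from −0.30 to −0.03 for miR-218-5p and from 1.42 to 2.29 for miR-218-1-3p, ratio differences from −2.26 to −1.25, 3 to 13 miRNAs past the threshold (3 without BTBR replicate 3 or 4, 4 without BTBR replicate 1, 13 without B6 replicate 2) and 0 to 1 arm ratios. That 1 ratio was miR-1298-5p over miR-1298-3p without B6 replicate 4. With 3 mice against 4 the exact test cannot go below 0.0571. A mean of 8.88 reads per library limits every statement on miR-218-1-3p.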
